A study of Mus musculus with 6 samples.

Results

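The genes described here encode subunits of the Polycomb and trithorax complexes, 39 of the 55416 genes in the count files. They were taken by name, as 11 genes of Polycomb repressive complex 2 (PRC2), 18 of Polycomb repressive complex 1 (PRC1) and 10 of the COMPASS histone methyltransferases together with the demethylase gene Kdm6b, and each of the 39 symbols matched 1 gene identifier. RNA was read by 3' tag sequencing in oligodendrocyte precursor cells of mouse cortex at postnatal day 11, with cells of 4 to 6 mice pooled in each sample. All 6 samples came from mice with Cre under the Pdgfra promoter and a RosaEYFP reporter. The 3 Ift88 cKO samples were Ift88 fl/fl, and the 3 Ift88 control samples were Ift88 fl/wt, so the controls also carried Cre, the reporter and 1 floxed copy. Ift88 encodes a carrier protein without which primary cilia do not form. The labels give neither the floxed exons nor how many cells had recombined.

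PRC2 places methyl groups on lysine 27 of histone H3 through the enzymes Ezh1 or Ezh2, with Eed, Suz12 and the histone chaperones Rbbp4 or Rbbp7 as its core. PRC1 places ubiquitin on histone H2A through Ring1 or Rnf2, and a PCGF protein decides which PRC1 is formed: CBX and PHC proteins join the canonical form, which reads the PRC2 mark, and Rybp or Yaf2 the variant forms. COMPASS complexes of the trithorax group methylate lysine 4 of histone H3 at active promoters and enhancers through a KMT2 enzyme held by the scaffold proteins Wdr5, Ash2l, Rbbp5 and Dpy30, and Kdm6b removes the PRC2 mark. In neural progenitors these systems hold developmental regulators silent or poised, and Ezh2 in particular is known from dividing oligodendrocyte precursors.

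Total counts ran from 11773548 to 13909236 in 5 libraries, called the deeper libraries here, and were 568509 in cKO replicate 2. That library held a count for 3651 genes, against 14047 to 16252 in the deeper ones. Its choroid plexus markers (Ttr and 5 others) summed to 46421 CPM (counts scaled to the same total in each library), against 12.9 to 684 CPM. Of this sum Ttr held 45945 CPM and Otx2 477 CPM, and Kl, Clic6, Folr1 and Aqp1 were at 0. The tests below are therefore given with and without it. By counting error alone, 0 counts leave room for at most 0.216 to 0.255 CPM in a deeper library and 5.28 CPM in cKO replicate 2. Of 10 precursor markers, Sox10, Gpr17, Tnr and Pcdh15 were at 0 in the 5 deeper libraries and the list summed to 177 to 461 CPM there, against 2364 to 8591 CPM for 10 neuron markers. In such bulk samples fewer cells of a type and less RNA per cell cannot be told apart. Ift88 itself had 143, 32 and 167 counts in the control libraries, against 1, 0 and 305 across the cKO libraries, and a 3' tag outside the floxed exons would not check the genotype.

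Between cKO and control samples 0 of the 38 tested genes passed an adjusted p of 0.05 in edgeR, where 0.0156% of all genes did, and 0 of 39 without cKO replicate 2, where 0.00687% did. In 3 of 5 sets of alternative subunits, proportions did not overlap between the groups in libraries with at least 20 counts of the set. No share had an adjusted p below 0.4 in exact permutation tests. Without cKO replicate 2, CPM of single genes did not overlap for 13.0% of all genes with higher cKO values and 12.6% with lower ones. Shares of other gene sets were not taken, so the count of 3 sets has no background of its own. The set of Rbbp4 and Rbbp7 compared 3 against 3 libraries, that of Ring1 and Rnf2 3 against 2, and the KMT2 set 2 against 2. Rbbp7, Ring1 and Rnf2 also did not overlap in CPM without cKO replicate 2. Rbbp7 made up 32.2% to 39.2% of the Rbbp4 and Rbbp7 counts in the controls and 52.8%, 67.8% and 100% across the cKO libraries. Rnf2 made up 49.8% to 62.2% of the Ring1 and Rnf2 counts in the controls and 77.9% and 82.8% in cKO replicates 1 and 3. Kmt2a and Kmt2b made up 73.0% and 66.5% of the KMT2 counts in control replicates 1 and 3 and 61.5% and 47.4% in cKO replicates 1 and 3. The genes at the top of the range of levels were Rbbp4, Rbbp7, Phc2 and Rnf2, and those at its foot were Cbx7, Kmt2c, Kmt2a and Phf19.

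The 39 genes spanned a wide range of levels. Averaged over the 5 deeper libraries, Rbbp4 had 333 CPM, Rbbp7 295, Phc2 207, Rnf2 157 and Dpy30 106 CPM, while Cbx7 and Kmt2c had 2.35 and 2.37 CPM. A 3' tag count does not grow with transcript length, so levels of different genes are compared here per transcript end and not per base. The ranges of Rbbp4 (229 to 454 CPM) and Rbbp7 (139 to 481 CPM) overlapped, so the order of these neighbours is within their spread. Among the genes tested without cKO replicate 2, Rbbp4 stood above 96.5% of 14562 genes and Cbx7 above 8.62%. By group, the median level was 61.4 CPM for PRC2, 28.3 CPM for PRC1 and 15.4 CPM for COMPASS with Kdm6b.

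**Figure D1:**
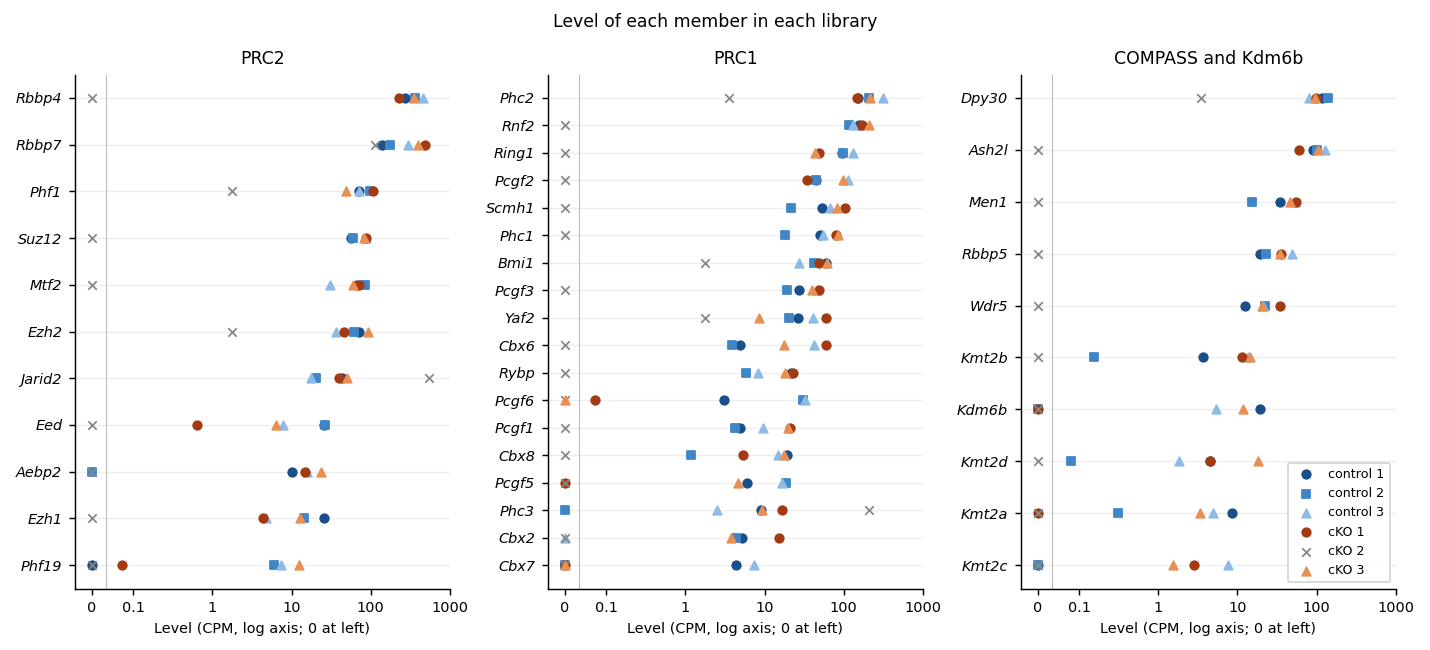
Level of each of the 39 genes in each library, in CPM on a log axis with counts of 0 drawn at the left edge, in 3 panels for PRC2, PRC1 and COMPASS with Kdm6b; each point is 1 library. Rbbp4, Rbbp7 and Phc2 lie at 100 CPM or more in the 5 deeper libraries, while the gray crosses of cKO replicate 2 are at 0 for 30 of 39 genes and far to the right for Jarid2 and Phc3.

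Detection was broad in the deeper libraries and narrow in cKO replicate 2. With 20 counts taken as detection, 37, 30 and 38 of the 39 genes were detected in control replicates 1 to 3, 32 in cKO replicate 1 and 36 in cKO replicate 3, against 3 in cKO replicate 2. A gap remained at equal depth: thinned to 568509 counts, the deeper libraries still had 30 to 38 of the genes with at least 1 count and 13 to 21 with at least 20, against 9 and 3 in cKO replicate 2. Rbbp4, at the mean level of the deeper libraries, would have had 189 counts there and had 0. Of 22 genes whose mean level corresponds to 10 or more counts in that library, 20 had 0 to 2. The 3 genes detected there were Jarid2 with 306 counts, Phc3 with 120 and Rbbp7 with 65, which together held 98.4% of the counts of all 39 genes.

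**Figure D2:**
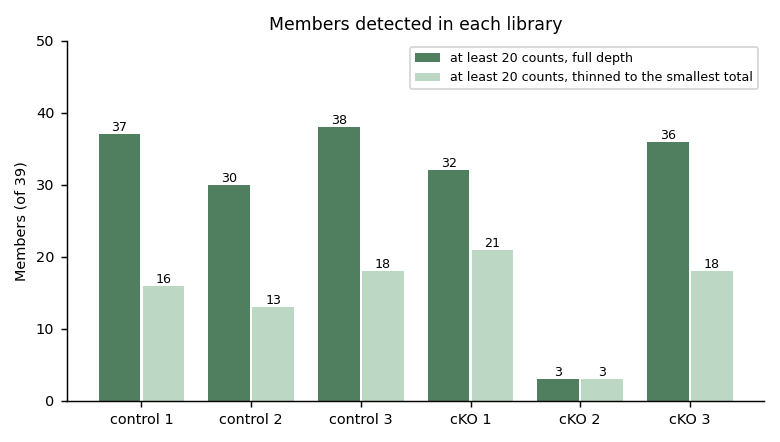
Number of the 39 genes with at least 20 counts in each library (y axis), at full depth in dark green and after thinning to 568509 counts in light green. The deeper libraries keep 13 to 21 genes after thinning, above the 3 of cKO replicate 2.

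Evenness across the 5 deeper libraries was close to that of genes in general. At least 20 counts in all 5 were found for 25 of the 39 genes (64.1%), against 56.6% of all 14562 genes tested without cKO replicate 2. Conversely, 10 of 39 (25.6%) had 0 counts in 1 deeper library and 100 or more in another, against 22.7% of all genes tested. The median coefficient of variation of CPM over these libraries was 50.7%, against 64.6%, and the median level was 31.2 CPM, against 18.9 CPM. Suz12, the PRC2 core subunit needed for the stability of the complex, was the most even of the 39 with a coefficient of variation of 20.2%, followed by Dpy30 (21.5%) and Rnf2 (22.4%). Cbx7, Kmt2c and Pcgf6 were the least even, at 144%, 131% and 126%.

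In PRC2, the groups did not overlap in the make-up of the chaperone pair. Rbbp4 and Rbbp7 are closely similar histone-binding proteins that stand in for each other in PRC2 and in other chromatin complexes. Rbbp7 (ENSMUSG00000031353, GRCm39 chromosome X, 161543398 to 161562088) had 139, 173 and 292 CPM across control replicates 1 to 3 and then 481, 114 and 389 CPM in cKO replicates 1 to 3. Rbbp4 (ENSMUSG00000057236, chromosome 4, 129200893 to 129229163) had 271, 364 and 454 CPM in the control libraries, against 229, 0 and 347 CPM across the cKO libraries. Rbbp7 was thus above every control in cKO replicates 1 and 3 and below every control in cKO replicate 2, while Rbbp4 overlapped between the groups in the deeper libraries.

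Expressed as a share of both genes, Rbbp7 held 33.9% (exact 95% binomial interval 32.7% to 35.2%), 32.2% (31.1% to 33.3%) and 39.2% (38.2% to 40.1%) in the controls. In the cKO libraries it held 67.8% (66.8% to 68.7%), 100% (65 of 65 counts, 94.5% to 100%) and 52.8% (51.8% to 53.9%). These intervals, like all counting limits here, treat reads as independent molecules, which PCR copies are not. The mean share was 35.1% ± 3.63 in the controls and 73.5% ± 24.1 in the cKO samples (SD, n = 3 each), or 60.3% without cKO replicate 2. The difference of 38.4 percentage points gave p = 0.1 in an exact two-sided permutation test, the smallest that 3 against 3 samples allow, and 0.4 after Benjamini-Hochberg adjustment over the 8 sums and shares tested. Without cKO replicate 2 the difference was 25.2 points, again with the smallest exact p possible, 0.1. The sums of 3 marker lists were also separated between the groups in the deeper libraries. The 10 precursor markers summed to 315, 461 and 205 CPM in the controls, against 194 and 177 CPM in cKO replicates 1 and 3, with 2 of 10 detected in all 5. Its genes did not move together: C1ql1 had 92.0, 297 and 135 CPM in the controls, against 20.3 and 29.1 CPM, while Pdgfra had 0, 4.63 and 4.13 against 11.1 and 10.3 CPM and Cspg4 had 8.06, 0.08 and 12.8 against 19.6 and 13.5 CPM. Olig1 and Olig2 had counts in cKO replicate 3 alone. The 10 neuron markers summed to 7597, 6411 and 2364 CPM, against 8017 and 8591 CPM, and among them Dcx had 198, 148 and 40.4 CPM, against 686 and 621 CPM. Snap25 and Gap43 also lay above every control there. The other neuron markers overlapped, among them Tubb3 with 2219, 2727 and 913 CPM against 2212 and 2422 CPM. The 6 choroid plexus markers summed to 211, 72.6 and 12.9 CPM, against 473 and 684 CPM, with 1 of 6 detected in all 5 and Kl at 0. Most of the cKO sums was Ttr, with 25.1, 7.37 and 0.15 CPM against 376 and 574 CPM. Aqp1, the marker detected in all 5, overlapped, with 186, 56.2 and 12.7 CPM against 69.9 and 58.0 CPM. The 8 astrocyte markers overlapped in sum. Among them Aldh1l1, Aqp4, Mlc1, Gfap and Gja1 lay below every control, Slc1a3 lay above, and Slc1a2 and Aldoc overlapped. The part of these lists in the Rbbp7 share, in that of Rnf2 and in the other values of these libraries was not tested.

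The counts of this pair have 2 limits of counting. Of the last 500 exon bases, 264 in Rbbp4 and 174 in Rbbp7 are shared with a neighbour on the other strand, Sync and Txlng, and unstranded reads that overlap 2 genes are left out. Rbbp7 also has a processed copy, Gm6382, with 96.2% identity over 286 bases of its 3' end, and reads that align equally to both are not counted. Gm6382 had 7.25, 25.2 and 33.9 CPM across control replicates 1 to 3 and then 64.6, 0 and 65.5 CPM across the cKO libraries, so in the deeper libraries it was higher in the same libraries as Rbbp7. With its counts added to Rbbp7 the share was 35.1%, 35.2% and 41.8% in the controls and 70.5% and 56.7% in cKO replicates 1 and 3.

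The promoters of Rbbp4 and Rbbp7, and of Ring1 and Rnf2 further on, are printed because the series title names CREB signalling, and the capitals mark TGACG, the core of the CREB response element, on either strand. The windows are those of RefSeq on GRCm38.p6, from 250 bases before to 50 after the first start listed, and run 5′ to 3′ on the strand of the gene. That of Rbbp4 (chr4:129335321-129335620, minus strand) holds no core match and that of Rbbp7 (chrX:162760122-162760421, plus strand) holds 2.
Rbbp4: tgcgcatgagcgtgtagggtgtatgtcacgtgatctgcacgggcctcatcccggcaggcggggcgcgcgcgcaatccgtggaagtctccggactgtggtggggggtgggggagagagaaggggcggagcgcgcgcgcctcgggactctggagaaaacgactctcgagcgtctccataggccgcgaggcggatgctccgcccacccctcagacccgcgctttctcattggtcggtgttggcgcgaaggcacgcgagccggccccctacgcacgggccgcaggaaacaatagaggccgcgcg
Rbbp7: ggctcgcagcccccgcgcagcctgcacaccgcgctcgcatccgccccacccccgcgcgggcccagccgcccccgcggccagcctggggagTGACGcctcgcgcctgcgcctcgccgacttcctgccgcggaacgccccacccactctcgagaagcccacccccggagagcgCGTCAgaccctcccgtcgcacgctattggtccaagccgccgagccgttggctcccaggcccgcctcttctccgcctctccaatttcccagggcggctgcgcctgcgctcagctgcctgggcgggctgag
Of the 39 genes, 32 have such a window. A core match was found in 11 of these 32 (34.4%), against 21.02% of 27025 windows of all genes, and the full site TGACGTCA in 1, that of Cbx8, against 1.88%. The E2F letters TTTCCCGC, TTTGGCGC or TTTCGCGC were found in 3 windows (9.38% against 1.91%), those of Ezh2, Suz12 and Phf19, and the GC box GGGCGG in 24 (75.0% against 35.9%). The median number of CpG per window was 24 in these genes and 7 in all windows, so base composition differs as well. All motifs were searched on both strands, the full site contains the core, and a match describes letters only.

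The other core genes of PRC2 were mostly at similar levels in both groups. Ezh2, the methyltransferase of dividing cells, had 70.8, 60.9 and 36.0 CPM in the control libraries, against 45.8, 1.76 and 93.4 CPM across the cKO libraries. Ezh1, its counterpart in resting cells, had 25.4, 14.3 and 4.72 CPM across control replicates 1 to 3 and then 4.39, 0 and 12.9 CPM across the cKO libraries. Ezh2 was the main form in each of the deeper libraries, with 73.6%, 81.0% and 88.4% of the Ezh counts in the controls and 91.3% and 87.9% in cKO replicates 1 and 3. The groups overlapped, and the difference of 8.55 points had an exact permutation p of 0.3 (adjusted 0.64, n = 3 against 2). Beside this, 12 genes of cycling cells summed to 281, 579 and 840 CPM in the control libraries, against 417 and 338 CPM in cKO replicates 1 and 3, with Mki67 and Ccnb1 at 0, and their part in the Ezh2 level was not tested.

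Suz12 had 56.5, 60.4 and 88.1 CPM across control replicates 1 to 3 and then 87.4 and 81.0 CPM in cKO replicates 1 and 3. Eed, the subunit that binds the methyl mark and activates the enzyme, was lower in those 2 libraries, with 25.7, 26.7 and 7.81 CPM in the control libraries, against 0.65, 0 and 6.29 CPM in cKO replicates 1 to 3. No cKO library reached a control, but control replicate 3 lay close to cKO replicate 3. The log2 fold change of Eed was -3.05 (SE 2.16), with a Benjamini-Hochberg adjusted p of 0.9999 from edgeR and of 0.4 or more under each alternative.

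Among the accessory genes, which steer PRC2 to its sites, Phf1, Mtf2 and Jarid2 led. In the deeper libraries Phf1 ranged from 48.9 to 108 CPM, Mtf2 from 30.4 to 83.6 CPM and Jarid2 from 17.6 to 49.9 CPM, each with overlapping groups. Jarid2, which joins PRC2 to chromatin already marked by PRC1, had 590, 256 and 239 counts across control replicates 1 to 3 and then 551, 306 and 588 across the cKO libraries. The 306 counts of the shallow cKO replicate 2 correspond to 538 CPM, far above any other library, and its log2 change was 2.87 (SE 1.75; adjusted p = 0.9999 in edgeR with Benjamini-Hochberg adjustment). Without that library it was 0.72 (SE 0.65, adjusted p = 0.9999 by the same test). Phf19 and Aebp2 were detected in 3 and 4 of the deeper libraries, at up to 12.2 and 23.3 CPM.

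In PRC1, the groups did not overlap in the proportions of the catalytic pair, and its summed level was even across the deeper libraries. Ring1 (ENSMUSG00000024325, chromosome 17, 34239766 to 34243654), which encodes RING1A, had 94.7, 96.7 and 133 CPM in the control libraries, against 48.5, 0 and 43.1 CPM across the cKO libraries. Rnf2 (ENSMUSG00000026484, chromosome 1, 151333755 to 151376706), which encodes RING1B, the main ubiquitin ligase of embryonic cells, had 156, 117 and 132 CPM across control replicates 1 to 3 and then 171, 0 and 207 CPM across the cKO libraries. In the deeper libraries every cKO value of Ring1 was below, and every cKO value of Rnf2 above, the controls. Their sum stayed between 214 and 264 CPM in these libraries, a coefficient of variation of 9.05%, against 44.9% for Ring1 alone and 22.4% for Rnf2.

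The Rnf2 share of the pair was 62.2% (exact 95% binomial interval 60.6% to 63.9%), 54.8% (52.9% to 56.6%) and 49.8% (48.2% to 51.5%) in the controls. It was 77.9% (76.4% to 79.4%) in cKO replicate 1 and 82.8% (81.4% to 84.1%) in cKO replicate 3, and cKO replicate 2 had no count of either gene. The mean was 55.6% ± 6.25 in the controls (SD, n = 3), the difference 24.8 points, and p = 0.1 in an exact two-sided permutation test of 3 against 2 samples, the smallest this design allows (0.4 after adjustment over 8 tests). Trmt1l, on the other strand, covers 158 of the 500 exon bases at the 3' end of Rnf2. The promoter window of Ring1 (chr17:34024631-34024930, minus strand, GRCm38.p6) holds 2 core matches of the CREB response element, in capitals, and that of Rnf2 (chr1:151500942-151501241, minus strand) holds none.
Ring1: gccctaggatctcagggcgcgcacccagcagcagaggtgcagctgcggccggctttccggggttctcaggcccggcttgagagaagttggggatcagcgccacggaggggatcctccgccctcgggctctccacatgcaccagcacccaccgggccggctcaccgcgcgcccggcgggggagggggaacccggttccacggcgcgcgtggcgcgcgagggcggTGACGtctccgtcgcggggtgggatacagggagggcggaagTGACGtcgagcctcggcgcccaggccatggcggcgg
Rnf2: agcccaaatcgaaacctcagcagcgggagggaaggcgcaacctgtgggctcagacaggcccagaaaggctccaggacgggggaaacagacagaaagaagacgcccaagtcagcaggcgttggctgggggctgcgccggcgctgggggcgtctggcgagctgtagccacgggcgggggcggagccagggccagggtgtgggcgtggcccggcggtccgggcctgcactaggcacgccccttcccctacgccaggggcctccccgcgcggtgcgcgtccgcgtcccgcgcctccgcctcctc
Of the 11 genes with a core match, Rbbp7 and Phc1 lay above and Ring1 and Pcgf5 below every control in cKO replicates 1 and 3. The other 7 overlapped, and none passed the edgeR test. Over all genes tested without cKO replicate 2, 13.0% lay above and 12.6% below every control in this way. A link of the letters to these levels was not tested.

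**Figure D3:**
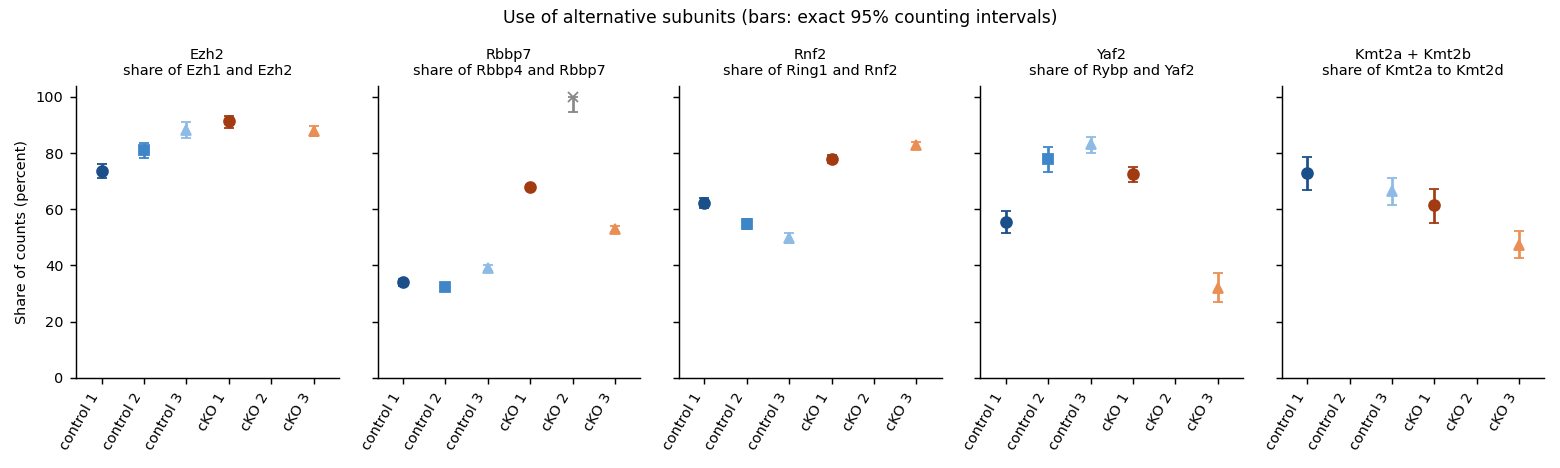
Share of counts (percent) held by 1 partner of 5 sets of alternative subunits in each library; bars are exact 95% counting intervals, and a library with fewer than 20 counts of the set has no point. The cKO points lie above the controls for Rbbp7 (52.8% and more against 39.2% and less) and for Rnf2 (77.9% and more against 62.2% and less), lie below them for Kmt2a with Kmt2b (61.5% and less against 66.5% and more), and overlap with them for Ezh2 and Yaf2.

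The PCGF genes, which define the PRC1 forms, were led on average over the deeper libraries by Pcgf2 and Bmi1 of the canonical complexes. Together the 6 genes summed to 147 to 244 CPM in the deeper libraries, of which Pcgf2 held 22.3% to 46.1% and Bmi1 11.3% to 41.2%. Pcgf2 and Bmi1 held the largest shares in control replicates 1 and 2 and in cKO replicate 3. In cKO replicate 1 Pcgf3 held the largest share, 32.3%, against 31.6% for Bmi1 and 22.3% for Pcgf2. In control replicate 3 Pcgf2 was the largest, and Bmi1, at 11.3%, lay below Pcgf3 (18.7%) and Pcgf6 (13.2%). Bmi1, known for the self-renewal of neural stem cells, had 60.4, 42.5 and 27.6 CPM in the control libraries, against 48.1 and 61.2 CPM in cKO replicates 1 and 3. Pcgf6, which belongs to a variant complex with E2f6 and Mga, had the largest negative fold change of the 38 genes tested with all 6 libraries. Control replicates 1 to 3 held 42, 395 and 437 counts of it (3.08, 31.0 and 32.2 CPM), and cKO replicates 1 to 3 held 1, 0 and 0. With libraries pooled, its ratio of control to cKO CPM was 574 with an exact 95% counting interval of 103 to 22694. That interval takes reads as independent molecules and leaves out the spread between libraries.

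The log2 fold change of Pcgf6 was -8.86 (SE 3.05, unadjusted p = 0.00374, adjusted p = 0.922) in the edgeR fit, Benjamini-Hochberg adjusted, and -8.83 (SE 2.31, adjusted p = 0.767) without cKO replicate 2. DESeq2 called it, with -7.60 (SE 1.76, Benjamini-Hochberg adjusted p = 0.00556), and again with -9.09 (adjusted p = 0.000272) without cKO replicate 2. It was lower in 3 of 3 cKO libraries than in any control, although control replicate 1 at 42 counts was far below the other controls. The PCGF genes together had 2117, 1 and 2640 counts in cKO replicates 1 to 3, beside 2003 to 3311 in the controls.

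Pcgf5 and Pcgf1, also of variant PRC1, lay on opposite sides in cKO replicates 1 and 3. Pcgf5 had 82, 241 and 226 counts across control replicates 1 to 3 and then 0, 0 and 54 across the cKO libraries. Pcgf1, of the complex with the DNA-binding demethylase Kdm2b, had 4.83, 4.23 and 9.43 CPM in the control libraries, against 20.9 and 19.6 CPM in cKO replicates 1 and 3, with 0 counts in cKO replicate 2. A processed copy, Gm8930, shares 96.2% of 212 bases with Pcgf1. Pcgf3 ranged from 19.2 to 49.1 CPM in the deeper libraries. None of these 3 passed.

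CBX genes, whose chromodomains read the PRC2 mark, were low and uneven. The 4 genes summed to 33.4, 9.41 and 64.0 CPM across control replicates 1 to 3 and then 79.4, 0 and 39.2 CPM across the cKO libraries. Cbx6, a form abundant in neurons whose 3' end also lies in Npcd over 202 bases in GENCODE M21, was the only one detected in all 5 deeper libraries, with 66, 49 and 567 counts in the control libraries, against 821 and 209 in cKO replicates 1 and 3. Cbx8 had 260, 15 and 201 counts across control replicates 1 to 3 and then 74 and 207 in those libraries, and Cbx2 had 70, 56 and 0 against 210 and 45. Cbx7 had 60, 0 and 100 counts in the control libraries, against 0 in all 3 cKO libraries, so control replicate 2 was at 0 as well. With reads pooled by group the ratio was at least 35.0-fold, against a limit of 3 counts over the cKO group. That is a limit of counting alone, which leaves out the spread between libraries. Cbx7 did not pass the filter on low counts with all 6 libraries and so was not tested there, and Apobec3 covers 100 of the 500 exon bases at its 3' end.

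Phc2 was the leading polyhomeotic gene, the part of PRC1 that joins complexes into larger bodies. It held 60.4% to 92.0% of the Phc counts in the deeper libraries and had 150, 210 and 313 CPM across control replicates 1 to 3 and then 148 and 213 CPM in cKO replicates 1 and 3. Phc1 had 50.3, 18.3 and 54.8 CPM in the control libraries, against 81.0 and 84.8 CPM in these cKO libraries, and Scmh1, a related partner, had 52.9, 21.6 and 66.8 against 103 and 82.5 CPM. Both were above every control in cKO replicates 1 and 3 and at 0 in cKO replicate 2. Phc3 had 125, 0 and 34 counts across control replicates 1 to 3 and then 229, 120 and 109 across the cKO libraries. Its log2 fold change was 4.25 (SE 1.96, unadjusted p = 0.0301, adjusted p = 0.9999, edgeR with Benjamini-Hochberg adjustment) and 1.73 (SE 2.32) without cKO replicate 2, in which the 120 counts correspond to 211 CPM.

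Of the adaptors of variant PRC1, Yaf2 held 55.4%, 78.0% and 83.1% of the Rybp and Yaf2 counts in the controls and 72.5% and 32.0% in cKO replicates 1 and 3. The difference of -19.9 points was within the spread between libraries (exact permutation p = 0.4, adjusted 0.64, n = 3 against 2). It was 0.34 points without cKO replicate 3, in which Yaf2 had 101 counts against 262 to 830 in the other deeper libraries. Rybp ranged from 5.80 to 22.7 CPM.

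**Figure D4:**
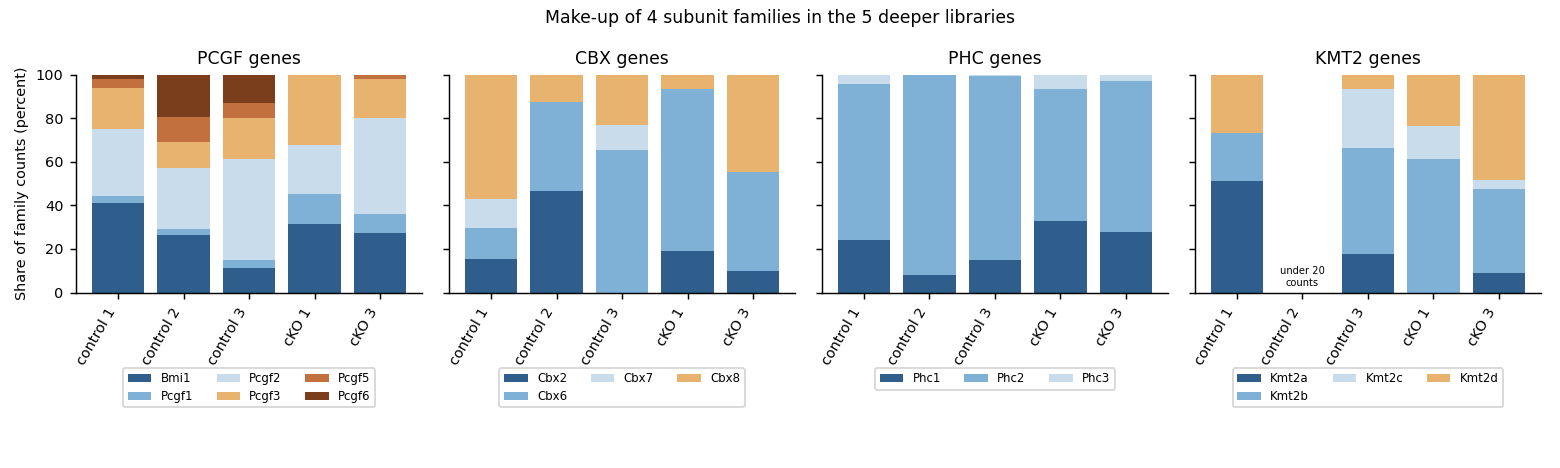
Share of the counts of 4 subunit families (percent, stacked to 100) held by each gene in the 5 deeper libraries; control replicate 2 had under 20 KMT2 counts and has no bar. Phc2 is the largest part of the PHC counts throughout, Pcgf6 holds 2.10% to 19.3% in the controls and 0.05% or less across the cKO libraries, and the CBX and KMT2 families differ in make-up from library to library.

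In COMPASS, the scaffold genes were well detected and the methyltransferase genes were not. Dpy30 had 117, 139 and 79.7 CPM in the control libraries, against 97.7 and 96.7 CPM in cKO replicates 1 and 3, and Ash2l had 89.1, 100.2 and 128 against 60.5 and 103 CPM. Rbbp5 and Wdr5 ranged from 19.2 to 49.0 and from 12.5 to 34.6 CPM in the deeper libraries. Men1, which tethers the Kmt2a and Kmt2b complexes to chromatin, ranged from 15.3 to 55.4 CPM. All 5 were detected in the 5 deeper libraries with overlapping groups and had 0 to 2 counts in cKO replicate 2.

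The 4 KMT2 genes together had 230, 7 and 379 counts across control replicates 1 to 3 and then 262, 0 and 447 across the cKO libraries. Control replicate 2, with 7, stood apart from the other deeper libraries. Most of its scaffold genes were not low: Ash2l had 1278 counts there, Dpy30 1775, Rbbp5 289 and Wdr5 283. Men1 was lowest in that library, at 15.3 CPM against 34.3 to 55.4 CPM in the other deeper libraries. Kmt2a, the founding trithorax homologue, had 118, 4 and 67 counts in the control libraries, against 0, 0 and 40 across the cKO libraries, and a log2 change of -1.91 (SE 2.51, adjusted p = 0.9999, edgeR with Benjamini-Hochberg adjustment). Kmt2d, which marks enhancers, had 62, 1 and 25 counts against 62, 0 and 217, and a log2 change of 1.83 (SE 2.60, adjusted p = 0.9999, same test). Kmt2b had 50, 2 and 185 counts against 161, 0 and 172, and Kmt2c had 0, 0 and 102 against 39, 0 and 18. The promoter enzymes Kmt2a and Kmt2b held 73.0% and 66.5% of the KMT2 counts in control replicates 1 and 3 and 61.5% and 47.4% in cKO replicates 1 and 3. That difference of -15.3 points had an exact permutation p of 0.333, the smallest that 2 against 2 samples allow (adjusted 0.64). The demethylase gene Kdm6b had 265, 0 and 72 counts across control replicates 1 to 3 and then 0, 0 and 140 across the cKO libraries.

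Across the whole comparison, 0 of 38 tested members passed an adjusted p of 0.05 with all 6 libraries in the quasi-likelihood test of edgeR, where 0.0156% of 12833 genes passed (0.00779% higher and 0.00779% lower in cKO). Without cKO replicate 2 again 0 of 39 passed, where 0.00687% of 14562 genes did, all of them lower in cKO. At an unadjusted p under 0.05 there were 2 members with all 6 libraries, Pcgf6 and Phc3, where 2.83% of all genes were found. Without cKO replicate 2 there were 3, Pcgf6, Rbbp7 and Ring1, where 6.09% were found. DESeq2 called 1 member, Pcgf6, both with all 6 libraries, where it called 1.01% of genes (0.472% higher and 0.534% lower in cKO), and without cKO replicate 2, where it called 3.82% (1.14% higher and 2.68% lower). In both it was lower in cKO. The log2 fold changes without cKO replicate 2 were 1.14 (SE 0.35, unadjusted p = 0.0124, adjusted p = 0.767) for Rbbp7 and -1.21 (SE 0.39, unadjusted p = 0.0151, adjusted p = 0.767) for Ring1 by edgeR. These 2 genes were singled out after their values were seen.

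**Figure D5:**
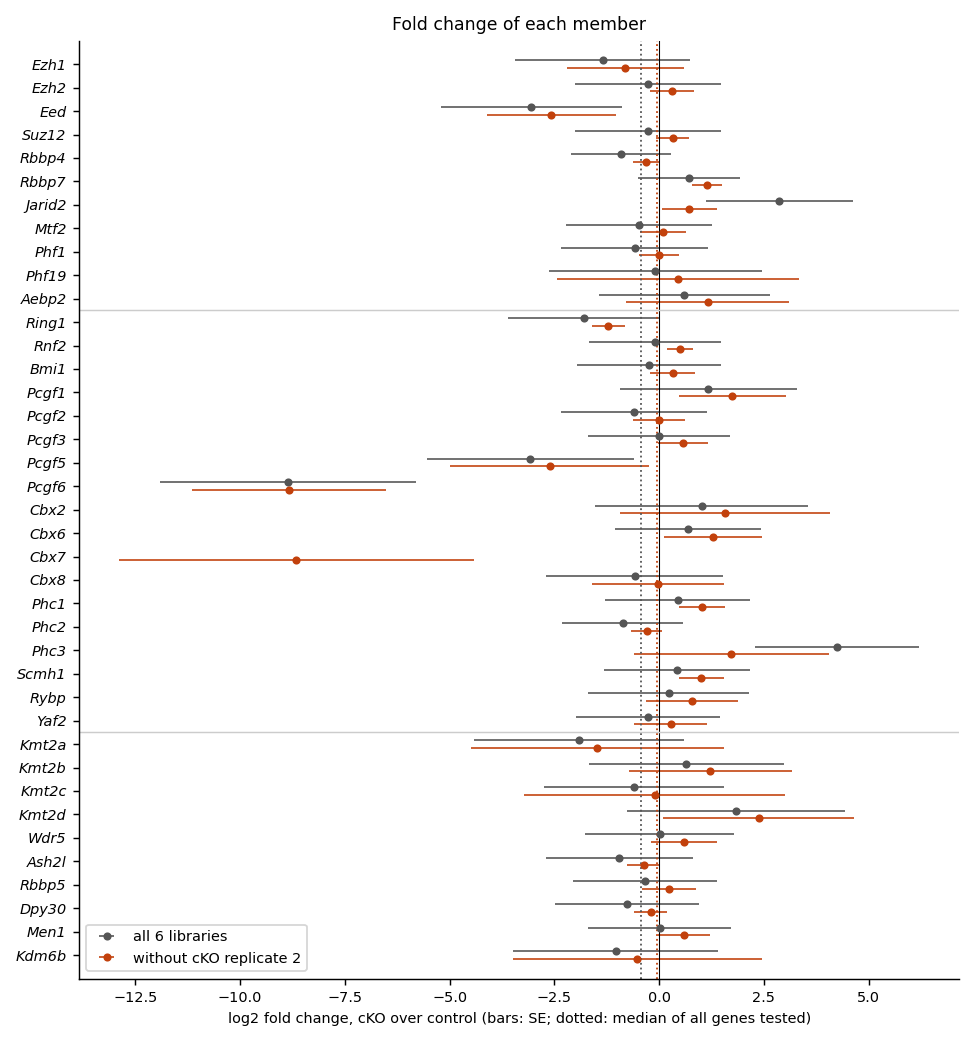
Log2 fold change of cKO over control for each gene, with all 6 libraries in gray and without cKO replicate 2 in orange; bars are standard errors, and dotted lines are the medians of all genes tested (-0.44 and -0.06). The bars are shorter without cKO replicate 2 for genes detected in all the deeper libraries, such as Rbbp7 and Ring1, while Jarid2 and Phc3 move toward 0.

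As a list, the 38 tested members had a median log2 fold change of -0.26 with all 6 libraries, against -0.44 over all genes tested, and 22 lay above that median. Without cKO replicate 2 the median of the 39 was 0.30, against -0.06, and 26 lay above. By group and without that library, 8 of 11 PRC2, 13 of 18 PRC1 and 5 of 10 COMPASS genes with Kdm6b lay above the median of all genes. Groups that did not overlap in CPM, again without that library, were seen for 6 of 39 members with higher cKO values, where 13.0% of all genes were, and for 4 of 39 with lower cKO values, where 12.6% were. Shares of 15.4% and 10.3% are near that background. The 6 were Rbbp7, Rnf2, Pcgf1, Phc1, Phc3 and Scmh1, and the 4 were Eed, Ring1, Pcgf5 and Pcgf6. With TMM scaling Aebp2 took the place of Phc3. With all 6 libraries the counts were 1 of 38 higher (Phc3), where 1.33% of all genes were, and 4 of 38 lower, the same 4 genes, where 11.1% were.

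Summed over each group, the differences with all 6 libraries were smaller than the SD of the cKO libraries, which include cKO replicate 2. That SD was 258 CPM for PRC2, 398 CPM for PRC1 and 188 CPM for COMPASS with Kdm6b. The difference for COMPASS with Kdm6b exceeded the control SD of 35.6 CPM. PRC2 genes summed to 780, 906 and 1026 CPM in the control libraries, against 1080, 656 and 1123 CPM across the cKO libraries, a difference in means of 48.9 CPM (exact permutation p = 0.8, n = 3 each). PRC1 genes summed to 742, 660 and 1058 CPM against 883, 218 and 929 CPM, a difference of -143 CPM (exact permutation p = 0.8, n = 3 each). COMPASS genes with Kdm6b summed to 309, 300 and 365 CPM against 302, 3.52 and 350.1 CPM, a difference of -106 CPM (exact permutation p = 0.5, n = 3 each). Without Rbbp4, of which 264 of 500 exon bases at the 3' end are shared with Sync, the PRC2 difference was 219.9 CPM with an exact permutation p of 0.1, the smallest possible for 3 against 3. In cKO replicate 2, 538 of the 656 CPM of PRC2 were Jarid2 alone. Without that library the differences were 197, 86.4 and 1.42 CPM, with exact p of 0.2, 0.6 and 0.9, so the signs for PRC1 and for COMPASS rested on it.

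A wider list of 69 other Polycomb and trithorax genes, including variant PRC1, COMPASS and SWI/SNF subunits, gave a similar picture in the test. With all 6 libraries 0 of 62 tested passed by edgeR, and 0 of 63 without cKO replicate 2. At an unadjusted p under 0.05 by edgeR there were 2 and 3, where 2.83% and 6.09% of all genes were found. Setd1a, a methyltransferase of COMPASS, had 0, 99 and 34 counts across control replicates 1 to 3 and then 187, 420 and 50 across the cKO libraries (6.10 on the log2 scale, SE 2.01, adjusted p = 0.796, edgeR with Benjamini-Hochberg adjustment). The adjusted p was 0.0477 with RLE scaling and the log2 fold change was 1.40 without cKO replicate 2. Chd7, a remodeller known from oligodendrocyte differentiation, had 85, 120 and 109 counts in the control libraries, against 182, 392 and 0 across the cKO libraries (4.81, SE 1.91, adjusted p = 0.9999, same test), and -0.22 without cKO replicate 2.

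In the deeper libraries, 19 of the 63 (30.2%) had higher values in both cKO libraries than in any control, where 13.0% of all genes did, and 2 (3.17%) had lower ones, where 12.6% did. With TMM scaling it was 18 (28.6%, against 12.9% of all genes) and 2 (3.17%, against 12.6%). Among the 19 were Kdm2b, with 8.64, 9.09 and 22.4 CPM across control replicates 1 to 3 and then 37.2 and 23.2 CPM in cKO replicates 1 and 3, Kdm5c, with 73.8, 49.0 and 71.7 against 120.1 and 159 CPM, and Smarcb1, a core SWI/SNF subunit, with 240, 271 and 259 against 351 and 328 CPM. The 2 lower genes were Yy1 and Bod1. These genes were chosen after their values were seen, and no test of the list was made.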

How the data were processed

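Per the labels' protocols, libraries came from a QuantSeq forward kit, which reads the 3' end of messenger RNA. Each deposited file holds unnormalised counts of reads by gene, made with featureCounts 2.0.0 on Ensembl release 104 of GRCm39, per the file headers, with no strand or multi-mapping option in the command. The submitters' processing notes also list FastQC, STAR and DESeq2, with no role given. No molecular identifiers are mentioned.

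A symbol was found for 52083 of 55416 identifiers. Samples were grouped by title. Counts were tested with edgeR 4.0.16 in R 4.3.3 (filterByExpr, TMM, glmQLFit robust, glmQLFTest, two-sided, no covariate, 3 against 3), with Benjamini-Hochberg adjustment over all genes tested and a threshold of 0.05; the standard error was the fold change over the square root of F. Nothing says the pools came from separate litters or preparations, so p-values measure the spread between these samples. Sums and shares (at least 20 counts) were tested by exact permutation over samples. Copies were sought with blastn among GENCODE M21 transcripts (last 300 bases, 95% identity, 100 bases or more). Counts per gene cannot separate isoforms of 1 gene, so the use of alternative subunits is described instead.

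The members, lists and tests were chosen with earlier results of these data known. Folds with errors are given for the 2 members per group and the 2 genes of the wider list with the smallest unadjusted p, and for Rbbp7 and Ring1, added after their values were seen. The alternatives tried were DESeq2 1.42.0, scaling by RLE or upper quartile, a fit to all genes, a filter of 5 CPM in 3 libraries, a replicate block, omission of each library in turn, TMM-scaled sums, leaving out genes with shared 3' ends, and other count minimums. On data simulated with the spread estimated from all 6 libraries the edgeR test recovered no changed gene, and with a much smaller spread it recovered nearly all, so a lack of calls here does not show a lack of change. Figures were drawn with matplotlib 3.10.9.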

Additional observations from a re-analysis of the deposited data

How the results depend on the processing

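The number of genes passing in the whole comparison, 2 with edgeR, was 130 with DESeq2 and 624 with DESeq2 without cKO replicate 2, 23 with no filter, 16 with RLE scaling, 1 with RLE scaling without cKO replicate 2, 0 with upper-quartile scaling and 1 to 7 when a library was left out. Of the members 0 passed in each of these edgeR fits, and 1 with DESeq2 with or without cKO replicate 2. The cause of the difference between the tools was not tested. DESeq2 and RLE scaling without cKO replicate 2 were chosen after seeing the data.

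Leaving out 1 library at a time moved the difference in summed level from -36.2 to 197 CPM for PRC2 (below 0 without control replicate 1, cKO replicate 1 or cKO replicate 3), from -269 to 86.4 CPM for PRC1 and from -172 to 1.42 CPM for COMPASS with Kdm6b, and the difference in Yaf2 share from -40.2 to 0.34 points. The difference in share ran from 25.2 to 48.8 points for Rbbp7 and from 21.9 to 28.1 for Rnf2. For Ezh2 it ran from 4.85 to 12.3 and for Kmt2a and Kmt2b from -22.3 to -8.32. These 4 kept their sign, which leaving out 1 library cannot change where groups do not overlap, as in all but Ezh2. The log2 fold change of Chd7 was -0.22 without cKO replicate 2, -0.14 with DESeq2 and -0.17 with RLE scaling on the same libraries, and that of Ift88 was -6.78 without cKO replicate 3 and -0.39 without control replicate 2. With 1 library left out they ran from -0.22 to 5.34 for Chd7 and from -6.78 to 0.65 for Ift88. Without Rbbp4, the member with the most shared 3' end, the PRC2 difference was 219.9 CPM (exact permutation p = 0.1), and with shares taken from 1 count the Yaf2 difference was -4.003 points (exact permutation p = 0.8). Summed over the 6 libraries, 176 detections of a member fell to 89 after thinning.

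Deviations of samples with the same replicate number had correlations of 0.08, 0.05 and -0.01 over genes for numbers 1 to 3. Pairs of unequal number had -0.07 to 0.02. Values this small in so few samples cannot show whether pools of equal number shared litters or preparations. With the replicate number as a block, edgeR called 1 gene and 0 members, and the log2 fold change of Ift88 was -3.71. Over pairs of equal number the Rbbp7 share differed by 38.4 points with an exact sign-flip p of 0.25, the smallest that 3 pairs allow.

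Depth limits the low members most: a gene under 5.28 CPM can be at 0 in cKO replicate 2 by counting alone.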

Other observations

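Processed copies of 4 members carried reads of their own. Gm5946, with 97.3% identity to Bmi1 over 300 bases, had 25.5, 23.0 and 26.6 CPM in the control libraries, against 16.5 and 30.4 CPM in cKO replicates 1 and 3, beside 27.6 to 61.2 CPM for Bmi1. Gm8930, the copy of Pcgf1, had 5.64, 8.23 and 3.76 CPM across control replicates 1 to 3 and then 0.07 and 5.95 CPM in those cKO libraries, where Pcgf1 itself was higher than in every control. Gm11977, the copy of Rbbp5, had 11.7, 0 and 5.45 CPM in the control libraries, against 0 and 8.75 CPM. All 4 copies, with Gm6382 of Rbbp7, had 0 counts in cKO replicate 2.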
